A study of Homo sapiens with 24 samples.

Results

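The synaptic vesicle and release genes described here are 47 genes whose products fill, dock, prime, fuse and retrieve synaptic vesicles, or hold the sending and receiving sides of a synapse together. They were chosen as a list of symbols in 11 role groups, with earlier results of these data known. They were found on the arrays through the RefSeq accession of each probe. All 47 had at least 1 probe (74 probes in all), and all 47 were among the 21240 genes left by the filter on dim spots. LUHMES is an established human mesencephalic cell line, a single clone held in division by a v-myc transgene that tetracycline shuts off. Here it was grown as shaken 3D aggregates in medium with cAMP, GDNF, tetracycline and N2. Rotenone, an inhibitor of mitochondrial complex I, or its solvent DMSO was added on day 7 of differentiation. There were 4 treatments: solvent alone, rotenone at 50 nM lasting 12 h, the same dose lasting 24 h, and a 24 h exposure to 100 nM. Each was collected at the end of exposure (day 8) or, with the rotenone removed, 7 days later (day 15), which makes 8 groups of 3 single-color arrays (24 in all). The DMSO amount was that of the 100 nM exposure. Each day had 1 DMSO group, against which all 3 exposures were compared. The sample titles give no length for the DMSO exposure. Any difference in timing between DMSO and the 12 h groups therefore cannot be told apart from rotenone. Replicates 1, 2 and 3 of every group lay on slides 1, 2 and 3, and slide 1, per the labels, was a repeated slide that needs batch correction. Nothing in the labels says that the 3 samples of a group came from separate cultures, so that p values measure the spread between these samples, which may be technical.

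A presynaptic terminal stores transmitter in vesicles that transporters load with glutamate, GABA or monoamines. Synapsins tether the vesicles, RAB3 proteins and active zone scaffolds (RIMS, BSN, PCLO) bring them to the membrane, and UNC13 and CADPS proteins prime them. The SNARE proteins SNAP25, STX1A and VAMP then fuse vesicle and membrane when synaptotagmins or DOC2 proteins sense calcium, and the membrane is taken back by dynamin, amphiphysin and AP180 (SNAP91). Neurexins and neuroligins bind each other across the synaptic cleft.

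Values below are log2 intensities after background correction, quantile normalization and batch correction of slide 1. Differences are log2 differences from 1 limma fit of all arrays, and a gene is called at a Benjamini-Hochberg adjusted p under 0.05 over all 21240 genes. Of the 47 members, 42 were well above background on all 24 arrays. The dim ones were SV2C (8 of 24 arrays), SYN3 (13), CADPS2 (10), NRXN3 (5) and VAMP1 (22). NRXN3 was not well above background on any day 8 array and SYN3 on none of the day 8 DMSO arrays, so that no fold is given for these genes between the days. The pan-neuronal markers (MAP2, TUBB3, RBFOX3, STMN2, ELAVL3, ELAVL4, DCX, INA, GAP43 and NEFL) were above background on all arrays, 10 of 10, while of 10 dopaminergic markers SLC18A2, the vesicular monoamine transporter, was not well above background on any DMSO array of day 8. The share of spots well above background was 67.3 to 82.4% on slide 1 and 50.9 to 62.4% on slides 2 and 3, and the array with the largest residual SD was replicate 3 of 100 nM on day 15 (0.453). The median residual SD of the members was 0.167, against 0.222 over all genes.

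First, the control aggregates of day 15 were compared with those of day 8, which asks how the release genes change over a further week of differentiation. In DMSO, 17 of the 47 members were upregulated and 3 were downregulated, together 42.6% of the members. Over all genes 23.2% were called, 10.1% upward and 13.2% downward. The members' median difference was 0.27, and 32 of 47 lay above 0, against a median of -0.04 over all genes, of which 46.1% lay above 0. On the processed signal scaled by the 75th percentile, the median of all genes came to 0.15 and that of the members to 0.33. Within slides, for which differences are taken before the batch correction throughout, each of the 20 called members moved in the same direction on all 3. The calls rest on these same arrays, so that this is no separate support. The groups did not overlap in 27 members (57.4%), against 40% of all genes. Since the RNA is that of whole aggregates, a change in the number of cells of a type and a change in RNA per cell cannot be told apart. The count of 20 came to 7 without batch correction, 7 on slides 2 and 3 only, 10 with only these 2 groups fitted and 12 without replicate 1 of day 15 DMSO.

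SYN2, a synapsin that holds vesicles in the reserve pool, read 6.68, 6.95 and 6.82 on the day 8 DMSO arrays (replicates 1 to 3) and 8.62, 8.67 and 8.45 on those of day 15. The lowest day 15 array was far above the highest of day 8. The mean rose from 6.81 ± 0.14 to 8.58 ± 0.12 (SD, n = 3), a difference of 1.77 (SE 0.13, 3.4-fold, limma adjusted p = 6.2e-09). Its 2 probes, to different transcripts, rose by unequal amounts, 0.96 and 2.58. RAB3B, a small GTPase on secretory vesicles, read 7.49, 7.54 and 7.48 on day 8 and 9.33, 8.78 and 8.97 on day 15. The groups did not overlap, and the difference was 1.53 (95% confidence interval 1.23 to 1.83, 2.88-fold, limma adjusted p = 2.1e-07). RIMS1, the active zone scaffold that binds RAB3, read 8.60, 8.69 and 8.78 on day 8 and 9.87, 9.89 and 9.96 on day 15. Its arrays lay close together on both days, with a difference of 1.22 (0.96 to 1.47, 2.32-fold, limma adjusted p = 4.7e-07). SNAP91, the clathrin adaptor AP180, read 7.25, 7.16 and 6.99 on day 8 and 7.80, 8.01 and 8.07 on day 15. Its difference was 0.83 (0.64 to 1.01, 1.77-fold, limma adjusted p = 9e-07), and its 3 probes all rose, by 0.61 to 1.13.

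PCLO, the giant active zone scaffold piccolo, read 6.18, 6.39 and 6.10 on day 8 and 7.01, 6.82 and 7.12 on day 15, a difference of 0.76 (1.69-fold, limma adjusted p = 0.00044). Its 3 probes differed, with 1.38, 0.66 and, for a probe well above background on 3 of 24 arrays, 0.23. SYT7, a synaptotagmin with high calcium affinity known for asynchronous release, read 9.82, 9.47 and 9.60 on day 8 and 10.02, 10.22 and 10.44 on day 15 (difference 0.59, limma adjusted p = 0.00027). Groups did not overlap for either gene. The other 11 upregulated members rose by 0.29 to 0.66: the synaptotagmins SYT2 and SYT4, the vesicle glycoprotein SV2B, the SNARE proteins SNAP25 and STX1A, RAB3A, the priming factor UNC13A, the scaffold BSN, amphiphysin (AMPH), and the adhesion proteins NRXN2 and NLGN1. SNAP25 had the lowest value (0.29) and UNC13A the highest (0.66). Each of the 6 arrays was left out in turn. The call was lost for 4 of the 6 in SYT2, STX1A and UNC13A, for 3 in SYT4, SNAP25, BSN and NRXN2 and for 2 in NLGN1. It held each time in SV2B, RAB3A and AMPH. For SYT2, 1 of 5 probes carried the rise, with 1.46 against -0.18 to 0.42 for the rest.

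**Figure D1:**
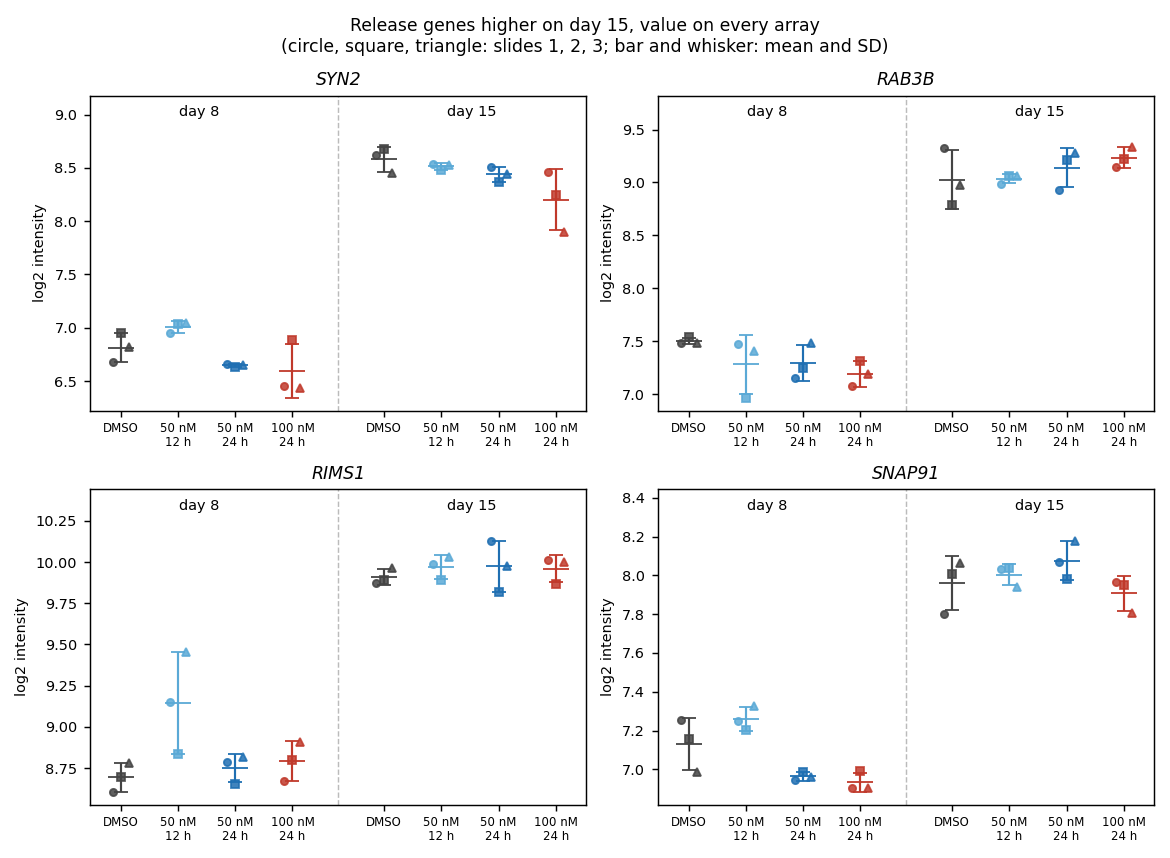
log2 intensity of SYN2, RAB3B, RIMS1 and SNAP91 (y axis) on every array of the 8 groups (x axis), with symbols for slides and the mean and SD of each group. In all 4 arms the day 15 arrays sit above the day 8 arrays; SYN2 lies between 6.44 and 7.05 on day 8 and between 7.90 and 8.67 on day 15.

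The 3 downregulated members were 2 transporters that load vesicles and 1 SNARE protein. VAMP1, a vesicle SNARE, read 5.22, 5.40 and 5.03 on day 8 and 4.49, 4.45 and 4.50 on day 15 in DMSO. The groups did not overlap, and the difference was -0.74 (interval -1.01 to -0.46, limma adjusted p = 0.00032). With 75th percentile scaling in place of quantile normalization the call was lost (-0.71, adjusted p = 0.17, and -0.84, adjusted p = 0.18, on the processed signal), and a normexp offset of 50 kept it at -0.27. SLC17A6, the vesicular glutamate transporter VGLUT2, read 12.85, 12.93 and 12.71 on day 8 and 12.17, 12.49 and 12.47 on day 15. No day 15 array reached the lowest of day 8, with a difference of -0.45 (limma adjusted p = 0.011). The SLC17A6 call was lost without replicate 1 of day 15 (-0.32). It was also lost without batch correction, on slides 2 and 3 only and with only the 2 DMSO groups fitted. SLC32A1, the vesicular GABA and glycine transporter, read 7.42, 6.95 and 7.27 on day 8 and 6.19, 6.65 and 6.98 on day 15. Its groups overlapped, and the difference of -0.60 (limma adjusted p = 0.021) came, before batch correction, to -1.22 on slide 1 and to -0.28 and -0.26 on slides 2 and 3. Its call was lost without replicates 1 or 3 of day 8 or replicate 1 of day 15 (-0.36 without day 15 replicate 1, adjusted p = 0.18), with 75th percentile scaling (-0.50), and on slides 2 and 3 only (-0.27). The related SLC17A7 (VGLUT1) differed by 0.08 and was not called.

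By role, the active zone scaffolds had 3 of 4 members called (RIMS1, PCLO and BSN; RIMS2 differed by -0.10). Of the 7 RAB3 and priming genes 3 were called, all upward, and of the 8 synaptotagmin and DOC2 genes 3, also upward. Among the vesicle endocytosis genes SNAP91 and AMPH rose, while SYNJ1 and DNM1 were not called. Of the SNARE proteins 2 rose and 1 fell. None of the 4 vesicle tetraspans (SYP, SYPL1, SYNGR1 and SYNGR3) and neither complexin passed the test, with differences of -0.06 to 0.34 and 0.15 to 0.22. The highest uncalled member was SYT1, the main calcium sensor of fast release, at 0.72, a gene with one of the largest residual SDs of the list (0.386). The lowest uncalled member was SYT5 at -0.63 (limma adjusted p = 0.087).

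Levels of cell type markers are given beside these values. The mean over the 6 dividing progenitor markers was 6.08 to 6.58 on the day 8 DMSO arrays and 5.30 to 5.50 on those of day 15, with 5 of 6 and 2 of 6 well above background on all 3 arrays and SOX2 on none. Of these 6, 4 were called downward and 0 upward. The mean over the 10 pan-neuronal markers ran from 13.61 to 13.77 on day 8 and from 13.71 to 13.85 on day 15, with 2 called upward and 1 downward. The 10 dopaminergic markers ran from 6.51 to 6.69 and from 6.26 to 6.47, with 7 and 8 of 10 well above background on all 3 arrays. They went both ways, with 2 called upward, 2 downward, a median of -0.03, the lowest value for TH (-2.94) and the highest for NR4A2 (1.57). The oligodendrocyte lineage markers (5 of 6 tested) ran from 6.35 to 6.52 and from 5.26 to 5.54, with 3 of 5 above background on both days. That fall in the mean was carried by OLIG1 (-5.16), while the median of the list was 0.10 and 3 of 5 were higher on day 15. TH, NR4A2 and OLIG1 were singled out after their values were seen. None of the 6 astrocyte markers was well above background on all 3 DMSO arrays of either day, GFAP on no array of them, and their mean was 4.10 to 4.45 and 4.05 to 4.30. The microglial markers (5 of 6 tested, 2 of 5 above background on all 3 arrays) ran from 4.28 to 4.50 and from 4.33 to 4.66, with P2RY12 on no array. The part of any of these lists in the release gene differences was not tested.

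The promoters of the 4 members with the largest rise are shown because these genes moved together between the days, and that of SYN1 as a relative of SYN2 that was not called (difference 0.40, adjusted p = 0.27). The windows run from 250 bases before to 50 after a transcript start and are RefSeq sequences of GRCh38.p14, written 5′ to 3′ on the strand of the gene. Where a gene has several starts (3 for RIMS1, 4 for SNAP91), the one farthest upstream is given. Capitals mark the GC box GGGCGG on either strand in the first 4, and in SYN1 the core of the RE1 site of the repressor REST, searched as CAGCACC and GGACAG with any 2 bases between them.
SYN2, chr3:12004138-12004437, + strand: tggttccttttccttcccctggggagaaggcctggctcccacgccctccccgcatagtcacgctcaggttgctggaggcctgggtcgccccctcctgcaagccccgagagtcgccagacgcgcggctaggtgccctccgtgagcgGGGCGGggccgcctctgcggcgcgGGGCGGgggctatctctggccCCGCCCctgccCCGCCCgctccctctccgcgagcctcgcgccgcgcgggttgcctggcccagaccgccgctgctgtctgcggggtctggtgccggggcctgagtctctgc
RAB3B, chr1:51990651-51990950, - strand: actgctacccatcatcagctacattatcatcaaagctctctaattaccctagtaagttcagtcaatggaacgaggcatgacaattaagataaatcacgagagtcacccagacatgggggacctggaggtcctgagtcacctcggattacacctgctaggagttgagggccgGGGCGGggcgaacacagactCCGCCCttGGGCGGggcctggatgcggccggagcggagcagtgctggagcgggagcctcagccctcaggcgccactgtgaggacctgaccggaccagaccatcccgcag
RIMS1, chr6:71886300-71886599, + strand: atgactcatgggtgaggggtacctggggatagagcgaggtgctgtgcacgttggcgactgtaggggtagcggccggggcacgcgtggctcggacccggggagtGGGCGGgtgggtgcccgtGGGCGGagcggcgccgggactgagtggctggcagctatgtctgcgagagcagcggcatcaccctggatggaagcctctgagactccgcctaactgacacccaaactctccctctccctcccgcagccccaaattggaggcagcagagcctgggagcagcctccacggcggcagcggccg
SNAP91, chr6:83709344-83709643, - strand: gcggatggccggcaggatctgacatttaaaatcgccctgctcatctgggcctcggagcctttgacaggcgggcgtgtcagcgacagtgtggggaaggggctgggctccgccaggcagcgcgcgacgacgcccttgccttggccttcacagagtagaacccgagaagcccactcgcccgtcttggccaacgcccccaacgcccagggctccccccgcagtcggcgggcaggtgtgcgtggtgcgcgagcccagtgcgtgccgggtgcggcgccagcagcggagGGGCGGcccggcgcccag
SYN1, chrX:47619808-47620107, - strand: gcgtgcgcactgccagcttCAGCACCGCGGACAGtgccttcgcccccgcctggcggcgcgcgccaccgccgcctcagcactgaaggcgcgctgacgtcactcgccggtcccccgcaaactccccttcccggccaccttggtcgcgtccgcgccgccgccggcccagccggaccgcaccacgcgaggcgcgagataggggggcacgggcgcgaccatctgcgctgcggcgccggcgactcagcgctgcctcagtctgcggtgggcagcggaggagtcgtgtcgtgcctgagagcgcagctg
SYN2 held 4 GC boxes in its window, RAB3B 3, RIMS1 2 and SNAP91 1. Of the 47 members, 37 matched the promoter table, with 57 windows, of which 36 (63.2%) held at least 1 GC box, against 45% of all 35116 windows. The RE1 element was present in 1 member window, that of SYN1, and in 0.0513% of all windows. The cAMP response element TGACGTCA was likewise found in SYN1 alone, and in 1.85% of all windows. Both strands were searched, no motif contains the letters of another, and a match is a description of the sequence only.

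The same day comparison was then made within each rotenone arm, a comparison added after the values were seen. These arms share no arrays with each other or with DMSO. Day 15 differed from day 8 in 19 members after 100 nM for 24 h (14 up, 5 down), 21 after 50 nM for 24 h (17 up, 4 down) and 19 after 50 nM for 12 h (14 up, 5 down). Over all genes 30.6, 28.8 and 28.2% were called in these arms, 13.3, 13.6 and 12.4% upward and 17.3, 15.2 and 15.8% downward. Of the 17 members upregulated in DMSO, 13 (76.5%) were also upregulated in the 100 nM arm, where they made 92.9% of the 14. In the 50 nM arms 14 (82.4%) and 12 (70.6%) were shared. The share of all genes that recur in this way was not computed. These overlaps, and that of all 4 arms, are therefore not read as particular to the members. SYN2, SV2B, SNAP25, STX1A, RAB3A, RAB3B, RIMS1, PCLO, AMPH, SNAP91, NRXN2 and NLGN1 were upregulated in all 4 arms, 12 of the 17, and SLC17A6 and SLC32A1 were downregulated in all 4. With its brightest probe alone PCLO differed by 0.056, 0.19 and -0.080 at 100 nM, 50 nM for 24 h and 50 nM for 12 h, none of them called. RAB3A in the 100 nM arm lost its call under 6 of 13 other settings, with values down to 0.18. The call of NRXN2 was lost under 4 of 13 in DMSO, 2 at 100 nM and 5 at 50 nM for 12 h. That of SNAP25 was lost under 5 in DMSO and 3 in each 50 nM arm. NLGN1 lost its call under 3 in DMSO and 3 at 50 nM for 12 h, and STX1A under 3 in the latter. Of the 12, only SYN2, RAB3B, RIMS1 and SNAP91 stayed called under all 13 settings in all 4 arms.

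RAB3B rose by 2.04 in the 100 nM arm (4.12-fold), from 7.07, 7.31 and 7.19 on day 8 to 9.14, 9.23 and 9.34 on day 15. SYN2 rose by 1.61 in the same arm, from 6.45, 6.88 and 6.44 to 8.46, 8.25 and 7.90. All arrays of day 15 were above all of day 8 for both genes. CADPS, which primes dense core and synaptic vesicles, was upregulated in all 3 rotenone arms, by 0.71 to 0.88. In DMSO it was not called, with a mean of 6.31 on day 8 and 6.58 on day 15. The dimmer of its 2 probes was well above background on 16 of 24 arrays. Its brighter probe alone gave 0.30 in the 100 nM arm (adjusted p = 0.16). Over the other settings, CADPS went down to 0.40 at 50 nM for 24 h and to 0.41 at 50 nM for 12 h. In both 50 nM arms the call was lost in 1 of 13 settings, that with slides 2 and 3 alone. DOC2B, a soluble calcium sensor, was downregulated in all 3 rotenone arms, by 0.53 to 1.04 on the log2 scale, and differed by -0.41 in DMSO (limma adjusted p = 0.12). At 50 nM for 24 h the DOC2B call was lost under 6 of 13 settings, at -0.36 in the weakest, and without any 1 of 3 of the 6 arrays. In the other arms it held under all 13. The test of the difference between arms, given below, passed for neither gene.

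**Figure D2:**
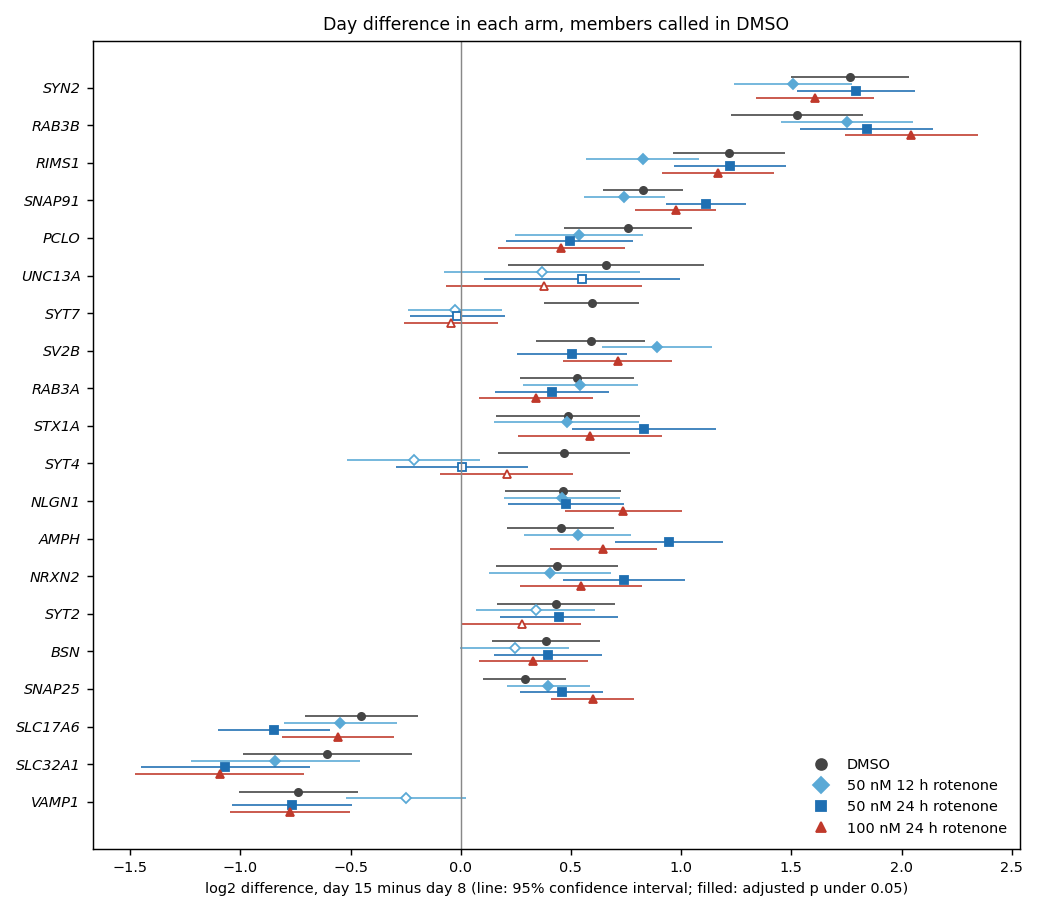
log2 difference of day 15 minus day 8 (x axis) in DMSO and in the 3 rotenone arms for the 20 members called in DMSO (y axis), with 95% confidence intervals and filled symbols at an adjusted p under 0.05. SYN2 and RAB3B lie at 1.51 or more in all arms, while SYT7 lies at 0.59 in DMSO and close to 0 after rotenone.

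Next, each exposure was compared with DMSO on day 8 to ask which release genes respond to rotenone at once. Few did. At 100 nM for 24 h, 4 of the 47 members were called, 2 upward (SYT7 and DOC2B) and 2 downward (NLGN1 and SNAP25), that is 8.51% of the members against 9.48% of all genes (4.07% upward, 5.41% downward). At 50 nM for 24 h there were 3, all upward (SLC32A1, SYT7 and CPLX1), 6.38% against 8.02% (3.66% upward, 4.36% downward). At 50 nM for 12 h there were 4, all upward (SYT7, SYT4, DOC2B and RIMS1), 8.51% against 5.52% (2.66% upward, 2.85% downward). Groups did not overlap in 11, 14 and 14 members, against 28.5, 28.1 and 23.6% of all genes. Taken over both directions, the shares of called members were near those of all genes. The upward shares at 50 nM were higher, 6.38 against 3.66% at 24 h and 8.51 against 2.66% at 12 h. They rest on 3 and 4 members. With the study's further threshold of a 1.5-fold change, DOC2B was left at 100 nM and at 50 nM for 12 h, and SLC32A1 at 50 nM for 24 h, against 3.45, 1.75 and 2.8% of all genes. Without batch correction, 0 members were called at 100 nM, 1 at 50 nM for 24 h and 0 at 50 nM for 12 h. These counts and those that follow take any fold change. The 100 nM count was 7 with a normexp offset of 50 or a filter on spots well above background and 8 with the authors' normalized values, which gave 6 for 50 nM and 24 h, and with the slide as a block in its place the 50 nM and 24 h count came to 5. In all, 8 members were called in at least 1 exposure and 39 in none. The share of all genes called in at least 1 exposure was not computed, so that this count is a description only.

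SYT7 was the one member called in all 3 exposures. On day 8 it read 9.82, 9.47 and 9.60 in DMSO, 10.14, 10.04 and 10.18 after 50 nM for 12 h, 10.16, 9.96 and 10.14 after 50 nM for 24 h and 10.06, 9.99 and 10.10 after 100 nM. All 9 rotenone arrays were above all 3 DMSO arrays. The differences were 0.49, 0.45 and 0.42 (SE 0.10), or 1.40-, 1.37- and 1.34-fold, with limma adjusted p = 0.0071, 0.0089 and 0.012. These comparisons share the DMSO arrays, and without DMSO replicate 2, the lowest of them, none of the 3 was called (0.40, 0.37 and 0.33, adjusted p = 0.055, 0.063 and 0.085). The 100 nM call was also lost without replicate 3 of that group (0.39, adjusted p = 0.054). Within slides, before batch correction, the 100 nM difference was 0.23, 0.53 and 0.51.

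DOC2B read 6.85, 7.21 and 7.20 in DMSO, 7.76, 7.66 and 7.87 after 50 nM for 12 h, 7.23, 7.21 and 7.56 after 50 nM for 24 h and 7.80, 7.57 and 7.86 after 100 nM. Only the 50 nM group of 24 h reached down to the DMSO arrays. The difference was 0.68 (1.60-fold, limma adjusted p = 0.034) at 50 nM for 12 h, 0.25 (adjusted p = 0.54) at 50 nM for 24 h and 0.66 (1.58-fold, adjusted p = 0.027) at 100 nM. Its 2 probes gave 0.74 and 0.57 at 100 nM. The 100 nM call was lost without DMSO replicate 1 (0.51, adjusted p = 0.16) and without replicates 1 or 3 of the exposure (0.62 and 0.60), and the 12 h call without any 1 of its 6 arrays. Both were lost with 75th percentile scaling.

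SLC32A1 read 7.42, 6.95 and 7.27 in DMSO and 8.13, 8.20 and 8.07 after 50 nM for 24 h. The groups were well apart, and the difference was 0.92 (interval 0.54 to 1.31, 1.90-fold, limma adjusted p = 0.0033). After 50 nM for 12 h it read 7.50, 7.53 and 8.04 and after 100 nM 8.00, 7.59 and 7.68. These arrays too lay above the DMSO arrays, but the differences of 0.48 and 0.55 were not called (adjusted p = 0.16 and 0.070). The other vesicular transporters, SLC17A6 and SLC17A7, differed by 0.01 to 0.33 in the 3 exposures and were not called.

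CPLX1, a complexin that clamps assembled SNARE complexes, read 10.80, 10.87 and 11.02 in DMSO and 11.29, 11.48 and 11.19 after 50 nM for 24 h. The groups did not overlap, with a difference of 0.43 (limma adjusted p = 0.037), and at 100 nM it was 0.37 (adjusted p = 0.065). The call was lost without replicates 1 or 2 of either group, with values down to 0.34. SYT4, a synaptotagmin of peptide-containing vesicles, read 12.23, 12.37 and 11.96 in DMSO and 12.82, 12.91 and 12.51 after 50 nM for 12 h, a difference of 0.56 (limma adjusted p = 0.025). It was 0.20 and 0.22 in the 24 h exposures, and the call was lost without DMSO replicates 1 or 3 or exposure replicates 1 or 2, with values down to 0.45. RIMS1 read 8.60, 8.69 and 8.78 in DMSO and 9.15, 8.83 and 9.45 after 50 nM for 12 h, a difference of 0.45 (limma adjusted p = 0.034), and 0.06 and 0.10 in the 24 h exposures. Its 12 h arrays were spread widely (SD 0.31, against 0.09 in DMSO), and the call was lost without any 1 of the 6 arrays other than replicate 2 of that group, at 0.28 without its replicate 3.

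The 2 downregulated members are parts of the fusion machine and of the synaptic cleft. SNAP25, which gives the SNARE complex its membrane-bound pair of helices, read 12.95, 13.02 and 13.05 in DMSO and 12.60, 12.77 and 12.76 after 100 nM. The groups did not overlap, the difference was -0.30 (0.81-fold, limma adjusted p = 0.041), and the call was lost when any 1 of the 6 arrays was left out (-0.23 to -0.33, adjusted p = 0.058 to 0.20). NLGN1, the neuroligin of excitatory synapses, read 7.50, 8.00 and 7.84 in DMSO and 7.29, 7.45 and 7.23 after 100 nM. All 3 exposed arrays were below DMSO, with a difference of -0.45 (0.73-fold, limma adjusted p = 0.028) for which the 2 probes gave -0.46 and -0.45. The call was lost without DMSO replicates 2 or 3 (-0.33 and -0.42) and without exposure replicates 1 or 3. The 50 nM exposures gave -0.24 and -0.15 for NLGN1 and -0.19 and -0.07 for SNAP25, none of them called. NLGN2 and NLGN3 differed by -0.26 to -0.52 in the 3 exposures and were not called.

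**Figure D3:**
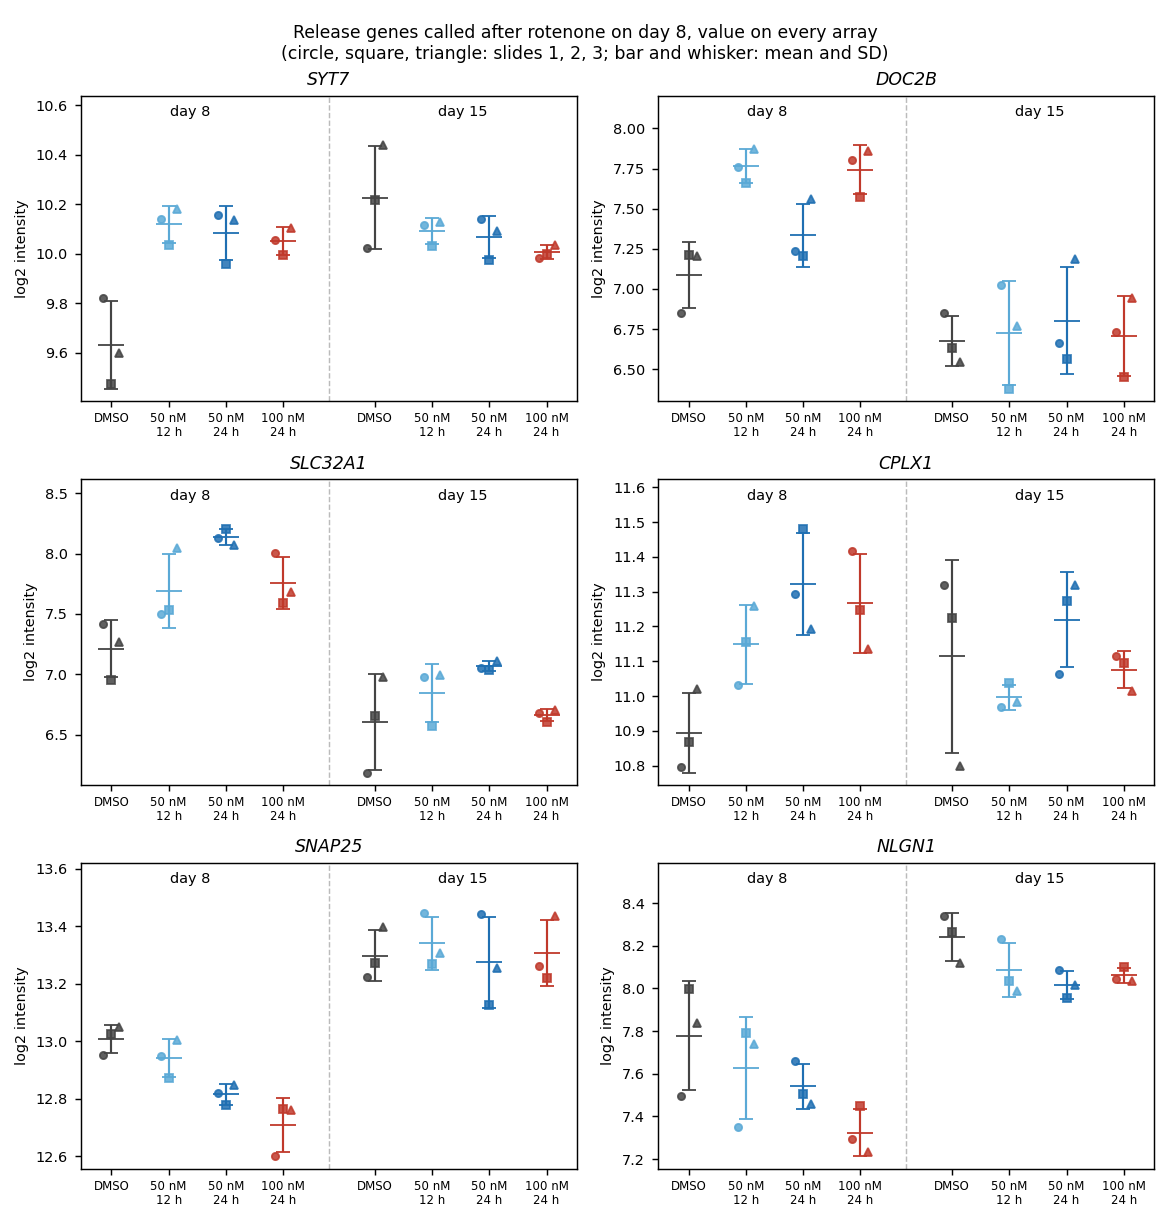
log2 intensity (y axis) of 6 members called after rotenone on day 8, on every array of the 8 groups (x axis), with symbols for slides and the mean and SD of each group. SYT7 is low in the day 8 DMSO arrays (9.47 to 9.82) and between 9.96 and 10.44 in all others, and the group means of SNAP25 and NLGN1 are lowest after 100 nM on day 8.

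The remaining members did not pass the test on day 8. Their differences ran from -0.45 to 0.55 at 100 nM, from -0.73 to 0.41 at 50 nM for 24 h and from -0.52 to 0.48 at 50 nM for 12 h. The medians over the 47 members were 0.07, -0.02 and 0.02, beside -0.02, -0.02 and -0.01 over all genes. On the processed signal the 100 nM medians came to 0.12 for the members and 0.10 for all genes. The pan-neuronal markers ran from 13.61 to 13.77 in DMSO and from 13.45 to 13.56 after 100 nM on day 8. They ran from 13.38 to 13.55 after 50 nM for 24 h and from 13.50 to 13.70 after 50 nM for 12 h. In each 24 h exposure 3 of the 10 were called downward and 0 upward, in the 12 h exposure 0, and their part in the release gene values was not tested. Doses and times were compared directly as well. With limma, 0 members differed between 100 and 50 nM at 24 h (4 at an unadjusted p under 0.05, with 4.17% of all genes below it) and 0 between 24 and 12 h of 50 nM (12 at an unadjusted p under 0.05, against 10.9%), where 0 and 0.537% of all genes were called. For SLC32A1 the 100 nM value lay 0.38 below the 50 nM value, with an interval of -0.76 to 0.01, and for DOC2B it lay 0.41 above, with an interval of 0.03 to 0.79. A p that misses the threshold does not show that the exposures act alike.

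After wash-out and 7 days of recovery the exposures were compared with the DMSO group of day 15. With limma, 0 of 47 members were called after 100 nM, 50 nM for 24 h or 50 nM for 12 h, and 0% of all genes were called. At an unadjusted p under 0.05 there were 2 members after 100 nM (SYN2 and SYT7, both lower), 1 after 50 nM for 24 h (SLC32A1, higher) and 1 after 50 nM for 12 h (SYN3, lower), while 7.21, 3.28 and 3.47% of all genes were below that p. SYN2 read 8.62, 8.67 and 8.45 in DMSO and 8.46, 8.25 and 7.90 after 100 nM, so that the groups overlapped, with a difference of -0.38 (unadjusted p = 0.0080, limma adjusted p = 0.62). SLC32A1 read 6.19, 6.65 and 6.98 in DMSO and 7.05, 7.03 and 7.11 after 50 nM for 24 h, which did not overlap, a difference of 0.46 (unadjusted p = 0.021, limma adjusted p = 1). The 95% intervals reached 0.29 to either side of the difference in the median member. SNAP25 read 13.22, 13.27 and 13.40 in DMSO and 13.26, 13.22 and 13.44 after 100 nM, and its difference of 0.01 had an interval of -0.18 to 0.20.

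**Figure D4:**
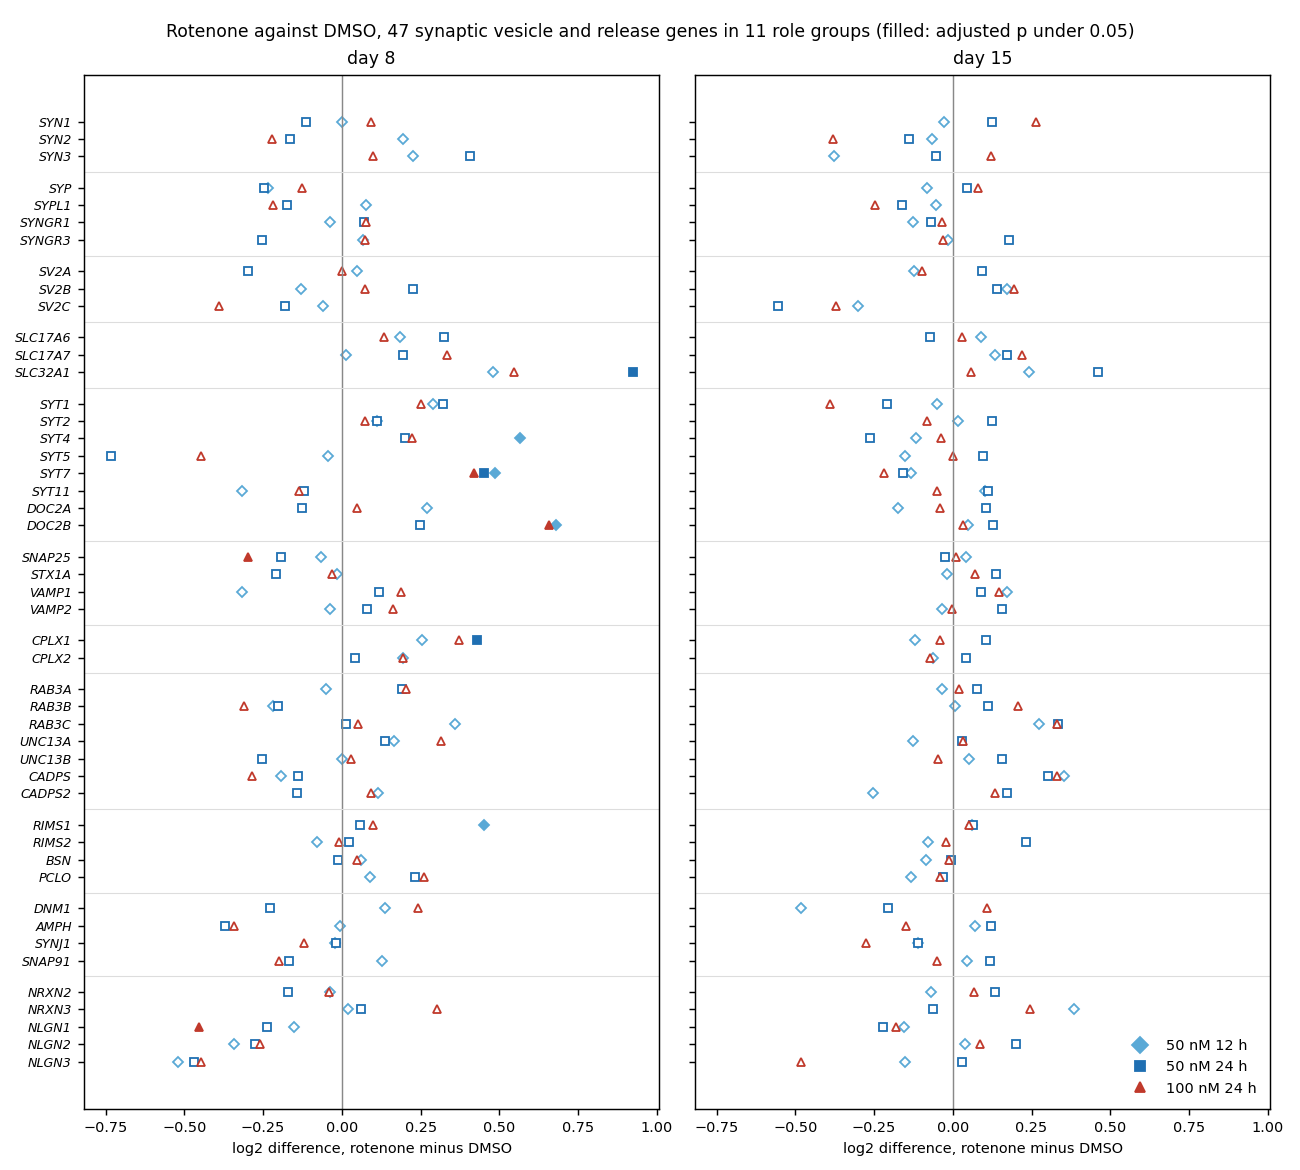
log2 difference of rotenone minus DMSO (x axis) for all 47 members in their role groups (y axis) on day 8 (left) and day 15 (right), for the 3 exposures; filled symbols have an adjusted p under 0.05. On day 8 there are 11 filled symbols, which belong to 8 genes, and on day 15 there are none.

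Whether the rotenone difference itself changed between the days was tested as an interaction. SYT7 was the one member called, with -0.64 for 100 nM, -0.61 for 50 nM and 24 h and -0.62 for 50 nM and 12 h (SE 0.14, limma adjusted p = 0.022, 0.034 and 0.046), where 2.44, 2.16 and 1.08% of all genes were called. With the slide as a block, 2 members were called for each 50 nM exposure. On day 15 SYT7 read 10.02, 10.22 and 10.44 in DMSO, 10.12, 10.03 and 10.13 after 50 nM for 12 h, 10.14, 9.97 and 10.09 after 50 nM for 24 h and 9.98 to 10.04 after 100 nM. Its rotenone arrays thus read alike on both days, and the DMSO arrays rose. The interactions, the day 8 differences and the day difference in DMSO all use the same 3 DMSO arrays of day 8. For DOC2B the interaction was -0.62 for 100 nM (limma adjusted p = 0.26), for SNAP25 0.31 (adjusted p = 0.25) and for CADPS 0.62 (adjusted p = 0.28), none of them called. Within slides, before batch correction, the SYT7 interaction at 100 nM was -0.27, -0.74 and -0.92. All 3 calls were lost without DMSO replicates 2 or 3 of day 8 or replicate 3 of day 15. The 100 nM call was also lost without replicate 3 of the exposure on day 8 (4 of 12 arrays in all), and the 50 nM calls were lost without any 1 of 8 (24 h) and 10 (12 h) of their 12 arrays.

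A wider list of 123 other genes of vesicle release, retrieval and synaptic adhesion, of which 118 were tested, was set beside the members. In DMSO, 37 of these rose and 8 fell between day 8 and day 15, together 38.1% against 23.2% of all genes, and their median was 0.15. CBLN2, a synaptic organizer that binds neurexins, rose by 3.32, SLC10A4, a vesicle membrane protein, by 2.72 and SYT3, a synaptotagmin, by 1.32 (limma adjusted p = 4.6e-14, 4.6e-14 and 9.3e-08). Downregulated were CPLX3 (-1.90), SYNGR4 (-1.50) and PTPRD (-0.77). After 100 nM on day 8, 7 of the 118 were upregulated and 9 downregulated, together 13.6% against 9.48% of all genes, and the median was -0.04. SLITRK1, a synaptic adhesion protein, fell by 0.77 on the log2 scale, SYNPR, a vesicle tetraspan, by 1.05 and SLC10A4 by 0.67, and STX3, a plasma membrane syntaxin, rose by 0.81, GIT1 by 0.46 and SNPH, syntaphilin, by 0.35. On day 15, 0 of the 118 were called after any exposure with limma, and 12, 6 and 2 had an unadjusted p under 0.05 after 100 nM, 50 nM for 24 h and 50 nM for 12 h, with 7.21, 3.28 and 3.47% of all genes below that p.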

How the data were processed

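RNA of LUHMES aggregates was labeled with Cy3 and hybridized to Agilent 8x60K arrays. The authors deposited the spot intensity and local background of each array from Feature Extraction, with outlier flags, and their own normalized log2 values, which were used as an alternative. The file headers give version 12.0.0.7 for slide 2 and 11.5.1.1 for slides 1 and 3. The submitters' processing notes name Feature Extraction 11.5.1.1 and R 3.5. Samples were grouped by their labels. The scan name of day 15 DMSO replicate 1 does not name DMSO, so that its group rests on its label.

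Median intensities were corrected with normexp (offset 0), quantile normalized and corrected for slide 1 with a hand-written parametric ComBat with the 8 groups as covariates, tested on simulated data. Differences within a slide were taken before this correction. The fit does not count the degrees of freedom that this correction used. A probe was kept if it was brighter than 1.1 times the negative controls' 95th percentile on 3 or more arrays. Flagged values were left out. Probes were averaged per gene by RefSeq accession (GRCh38.p14). The array design uses another build, so that no probe coordinates are given. Tests were limma 3.58.1 in R 4.3.3 (lmFit and eBayes, two-sided, 16 residual and 2.37 prior degrees of freedom). Figures used matplotlib, and intervals are at 95%.

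The members and lists were chosen with earlier results of these data known. Array values are given for members called on day 8 or between the days in DMSO, for at most the 6 with the smallest p per direction and comparison. Others are given by range and count, with the lowest and highest of a role group, and of the other release genes at most 3 per direction. Markers are given by levels, except 3 named after their values were seen. Same-numbered samples lie on 1 slide and, before batch correction, deviated together (correlations of at least 0.172, median 0.458 over 84 pairs). An effect of the slide and a pairing of the samples cannot be told apart here. The main fit did not pair them. The number of arrays limits the precision. Normexp offset, scaling, batch correction, a replicate block, filters, probe choice, slides, the samples fitted and leaving out arrays were tried as alternatives.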

Additional observations from a re-analysis of the deposited data

Results flagged for a closer look

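SYT7 differed between the days in its response to rotenone, as tested by the interaction term of the limma fit: -0.64 for 100 nM for 24 h, -0.61 for 50 nM for 24 h and -0.62 for 50 nM for 12 h (log2 scale, day 15 minus day 8 of rotenone minus DMSO, 3 arrays a group). Within slides, before batch correction, the 100 nM value was -0.27, -0.74 and -0.92. All 3 rest on the same DMSO arrays.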

How the results depend on the processing

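Among members called in a comparison, the direction changed in 1 case over the settings other than leaving out an array, PCLO after 50 nM for 12 h between the days, which was -0.080 with the brightest probe alone (adjusted p = 0.72). For the other called members, the direction and the call held in 1023 and the call was lost in 184 of the settings other than leaving out an array. Members that were not called were followed only by counts: on day 8 after 50 nM for 12 h, 25 of 47 lay above 0 and 29 with 75th percentile scaling, and the median after 50 nM for 24 h went from -0.02 to 0.01 on the processed signal. The first 3 settings given here are no batch correction, slides 2 and 3 only and only the compared groups fitted. For 100 nM on day 8 (4 called) these gave 0, 0 and 0, normexp offset 50 gave 7, 75th percentile scaling 2, the filter on spots well above background 7 and the authors' normalized values 8. For 50 nM and 24 h on day 8 (3 called) they gave 1, 0 and 1, the replicate block in place of ComBat 5 and the authors' values 6. For 50 nM and 12 h on day 8 (4 called) they gave 0, 0 and 0, and for DMSO between the days (20 called) 7, 7 and 10. SYN2, RAB3B, RIMS1, SNAP91 and SV2B were called in DMSO between the days under all 13 of these settings. The SYT7 interactions (1 called each) went to 0 under the same 3 settings. For 50 nM and 24 h the interaction count was 2 on the processed signal, with the replicate block and with the authors' values. For 50 nM and 12 h it was 0 on the processed signal, with 75th percentile scaling and with ComBat without covariates, and 2 with the replicate block and the authors' values. The count for 24 against 12 h (0 called) was 1 on the processed signal, with the replicate block and with the authors' values. In the rotenone arms, 50 nM for 24 h (21 called) gave 13 on slides 2 and 3, and 50 nM for 12 h (19 called) gave 12 without batch correction and 9 on slides 2 and 3. The causes were not tested. The replicate block, which pairs same-numbered samples, moved no other count by over 1.5 times.

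Leaving out 1 array gave 1 to 3 called members for 100 nM on day 8, 1 to 4 for 50 nM and 24 h, 1 to 3 for 50 nM and 12 h, 0 to 0 for each exposure on day 15 and for 100 against 50 nM, and 0 to 1 for 24 against 12 h. For DMSO between the days it gave 12 to 22, the lowest without day 15 DMSO replicate 1, the array whose scan name gives 12 h and not DMSO. The interactions gave 0 to 1 for 100 nM, 0 to 2 for 50 nM and 24 h and 0 to 1 for 50 nM and 12 h, and the rotenone arms 15 to 21, 17 to 23 and 15 to 19. SYN3, SV2C, CADPS2, NRXN3 and VAMP1 are limited by their low signal over background.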
